A study of Arabidopsis thaliana with 6 samples.

Results

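Group III of the WRKY transcription factors is described here by 10 genes of Arabidopsis thaliana, WRKY30, WRKY38, WRKY41, WRKY46, WRKY53, WRKY54, WRKY55, WRKY62, WRKY63 and WRKY70, taken by their locus identifiers from the 33602 loci of the deposited expression table. The tested libraries came from cfm6-1, labelled CFM6-/-, and the libraries they are set against from wild type (WT), both in the Col-0 background, with 3 libraries of each. All seedlings were harvested whole 14 days after germination, from MS medium with 1% sucrose at 22 °C and a cycle of 16 h light and 8 h dark. The labels call the libraries biological replicates and do not say what the cfm6-1 lesion is or how many seedlings went into a library. CFM6 is a CRM domain protein, of a plant family of RNA-binding splicing factors, and the series title ties it to a mitochondrial intron of nad5 and to plant growth. The comparison asks how the transcripts of this WRKY group differ between the genotypes.

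WRKY proteins are plant transcription factors named after a conserved peptide in their DNA-binding domain, and most of them bind the W box, which reads TTGACC or TTGACT. Members of group III carry a variant zinc finger in that domain. Many are known from salicylic acid signalling, the hormone pathway against biotrophic pathogens, and several are known from leaf senescence and abiotic stress. WRKY genes are often targets of WRKY proteins themselves, through W boxes in their own promoters.

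The expression values are RPKM, read counts scaled to the length of the gene model and to the depth of the library. Steps between the values of short genes put the depth at 47.3 to 52.8 M (mega) reads in the cfm6-1 libraries, against 49.7 to 50.6 M in the WT libraries. Changes were tested by limma on log2(RPKM + 1) over 20047 loci that reached 1 RPKM in 3 or more libraries, with Benjamini-Hochberg adjustment over all of them and a threshold of 0.05. CFM6 itself (AT4G13070) stood at 33.2% of its WT level in cfm6-1, which checks the labels. Most of the transcriptome was called at that threshold, 68.8% of tested loci, with 38.6% higher and 30.2% lower in cfm6-1, so a call alone sets no gene apart here. Both shoot and root were present in each library by their marker genes. The summed RPKM of 5 leaf marker genes was 4913 to 5507 in cfm6-1, against 9191 to 10442 in WT, and all 5 fell. The 7 root markers summed to 2269 to 2701 RPKM in cfm6-1, against 1682 to 1899 in WT, with 2 higher and 3 lower. Most of that sum was PYK10, at 2408 ± 227 RPKM in cfm6-1 and 1720 ± 100 RPKM in WT (SD, n = 3). MYB36 was the other that rose, while CASP1, COBL9 and TIP2-3 fell. The sum thus follows PYK10 and does not stand for the root markers as a set. In whole seedlings, fewer cells of a type and less RNA per cell cannot be told apart, and the part of these shifts in the WRKY values was not tested.

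The promoter sequences of 5 members are shown because they hold or lack the W boxes through which WRKY proteins act on each other, and because WRKY41 and WRKY53 are close relatives that changed by different amounts. Each is the 250 bases before the annotated gene start, read 5′ to 3′ on the gene's own strand from RefSeq's TAIR10.1 assembly and annotation. The submitters' processing notes name TAIR10 as the build, and no coordinate was taken from the deposited files. Capitals mark the W box, TTGACC or TTGACT on either strand, and the shorter TGACG, the core bound by TGA factors, which work with the salicylic acid receptor NPR1. No W box and TGACG shared bases in these windows.
WRKY70 (chr3:20910624-20910873, minus strand): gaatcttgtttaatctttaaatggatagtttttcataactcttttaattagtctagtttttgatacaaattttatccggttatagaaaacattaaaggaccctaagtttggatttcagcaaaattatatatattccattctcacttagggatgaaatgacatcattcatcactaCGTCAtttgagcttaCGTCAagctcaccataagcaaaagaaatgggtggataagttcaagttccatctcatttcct
WRKY54 (chr2:17002529-17002778, minus strand): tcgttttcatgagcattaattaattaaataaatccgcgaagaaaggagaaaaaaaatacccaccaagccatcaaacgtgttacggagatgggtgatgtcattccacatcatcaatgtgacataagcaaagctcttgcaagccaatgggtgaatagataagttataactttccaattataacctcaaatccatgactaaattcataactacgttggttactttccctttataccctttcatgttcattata
WRKY53 (chr4:12393983-12394232, minus strand): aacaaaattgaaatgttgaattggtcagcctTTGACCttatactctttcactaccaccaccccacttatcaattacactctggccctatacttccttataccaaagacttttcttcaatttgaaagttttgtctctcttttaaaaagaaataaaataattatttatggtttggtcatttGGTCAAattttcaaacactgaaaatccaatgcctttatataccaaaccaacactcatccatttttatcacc
WRKY41 (chr4:6758848-6759097, plus strand): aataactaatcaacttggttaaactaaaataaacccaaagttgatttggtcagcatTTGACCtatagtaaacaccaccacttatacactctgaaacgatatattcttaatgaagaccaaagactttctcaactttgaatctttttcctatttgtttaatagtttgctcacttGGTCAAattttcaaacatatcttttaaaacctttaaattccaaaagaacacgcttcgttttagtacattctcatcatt
WRKY30 (chr5:8154711-8154960, minus strand): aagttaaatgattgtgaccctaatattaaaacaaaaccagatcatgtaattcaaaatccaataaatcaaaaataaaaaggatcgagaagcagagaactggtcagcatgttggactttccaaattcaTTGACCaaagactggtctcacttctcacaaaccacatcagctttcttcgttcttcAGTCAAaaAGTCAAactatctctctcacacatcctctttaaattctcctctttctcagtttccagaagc
WRKY70 held no W box in this window and had TGACG on the opposite strand at 2 places, starting 76 and 61 bases before the gene start, and WRKY54 held neither. WRKY30 held 3 W boxes, at 124, 69 and 61 bases, the last pair on the opposite strand. WRKY53 and WRKY41 held 2 W boxes each, at 219 and 71 bases in WRKY53 and at 194 and 78 bases in WRKY41. Around the box nearer to the start, WRKY41 and WRKY53 shared an unbroken run of 19 bases, ttGGTCAAattttcaaaca, the longest run shared by any pair of the 10 windows. WRKY62 held 2 W boxes and WRKY55 held 1, while WRKY46, WRKY38 and WRKY63 held none. In all, 5 of the 10 windows held a W box and 4 held at least 2, against 28.4% and 6.18% of the 27443 windows before protein-coding genes. TGACG was found in 2 of the 10, WRKY70 and WRKY63, against 18.6% of all windows. Such matches describe letters only and show no binding.

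The 10 transcripts did not all move the same way. WRKY70, WRKY54 and WRKY55 lay lower in all 3 cfm6-1 libraries than in any WT library, and WRKY30, WRKY41, WRKY46, WRKY53, WRKY62 and WRKY63 lay higher, while WRKY38 overlapped. Of the 9 members that passed the filter on low values, 2 were called lower and 6 higher, against 30.2% and 38.6% of all loci tested. WRKY30 and WRKY62 passed the filter through their cfm6-1 values, since no WT library of WRKY30 and 1 WT library of WRKY62 reached 1 RPKM, and WRKY55 did not pass, so these counts are a description only. By size, 6 of the 9, WRKY30 and WRKY62 among them, moved by at least 1 on the log2(RPKM + 1) scale. Of all tested loci, 11.4% were called and moved as far. Genotypes did not overlap for 8 of the 9, against 74.3% of tested loci, with 6 above WT, against 41.5%, and 2 below WT, against 32.8%. WRKY30 and WRKY62 are also among the 6 above WT, so the counts by size and by overlap are a description only as well.

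**Figure D1:**
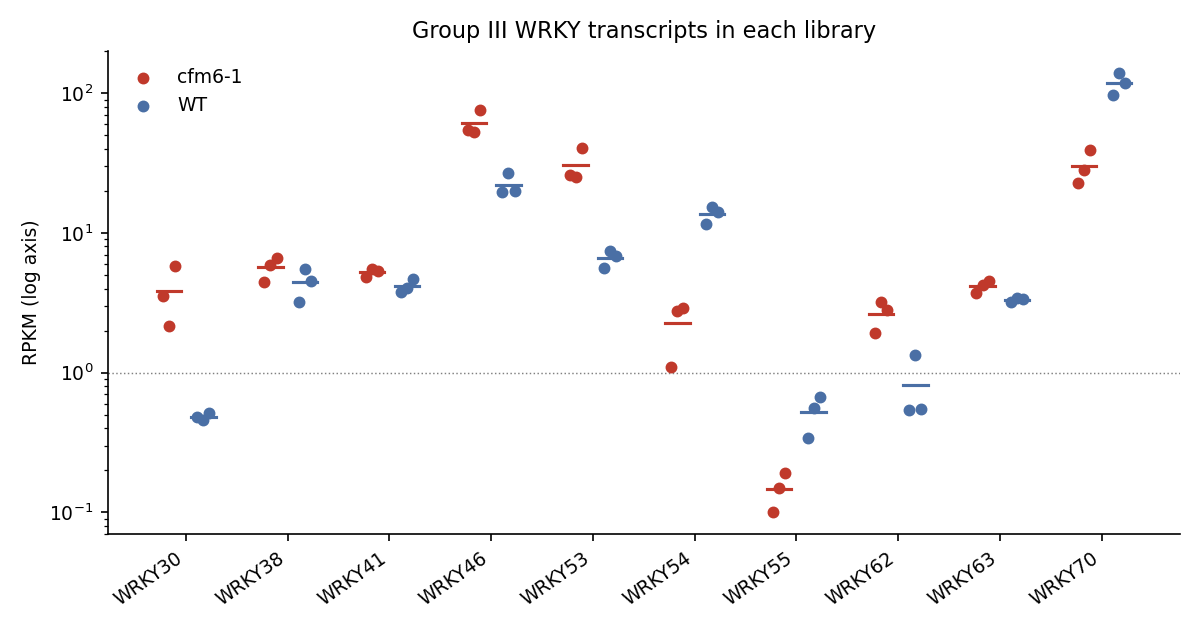
RPKM of the 10 group III WRKY genes in each library on a log axis, with cfm6-1 in red left of WT in blue; each point is 1 library, the short bar is the mean of 3 and the dotted line marks 1 RPKM. WRKY70, WRKY54 and WRKY55 lie lower in cfm6-1, WRKY38 overlaps, and the other members lie higher, WRKY30 by the largest ratio of means among the 10 genes.

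WRKY70 (AT3G56400, chr3:20908711-20910623 in TAIR10.1, minus strand) promotes salicylic acid responses, dampens jasmonate responses and delays senescence. Its transcript stood at 22.8, 28.3 and 39.0 RPKM in cfm6-1 replicates 1 to 3, against 96.8, 141 and 120 RPKM in WT replicates 1 to 3. The highest cfm6-1 library was far under the lowest WT library. WRKY70 fell to 25.2% of its WT level, a change of -1.97 on the log2(RPKM + 1) scale (SE 0.20, limma adjusted p = 0.000128). Of all tested loci, 167 fell further on this scale.

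WRKY54 (AT2G40750, chr2:17000419-17002528, minus strand) is the closest relative of WRKY70 and shares its roles in senescence and salicylic acid signalling. It stood at 1.09, 2.76 and 2.92 RPKM in cfm6-1 replicates 1 to 3, against 11.6, 15.2 and 14.2 RPKM in WT. All cfm6-1 libraries were low, and replicate 1 was the lowest of them. WRKY54 fell to 16.5% of WT, by 2.22 on the log2(RPKM + 1) scale (SE 0.24, limma adjusted p = 0.000154), and 105 tested loci fell further.

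WRKY55 (AT2G40740, chr2:16997078-16999499, plus strand), a gene linked to leaf senescence, is the neighbour of WRKY54, and the 2 genes face each other tail to tail with 919 bases between them. Its transcript was near the limit of detection, at 0.10, 0.15 and 0.19 RPKM in cfm6-1, against 0.34, 0.56 and 0.67 RPKM in WT. These values stand for 20 reads over the 3 cfm6-1 libraries and 70 over the 3 WT libraries. Every cfm6-1 library was under every WT library. In a fit with no filter on low values WRKY55 was called lower (log2(RPKM + 1) change -0.40, SE 0.08, limma adjusted p = 0.00688), where 55.4% of loci were called in either direction.

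WRKY46 (AT2G46400, chr2:19043411-19044955, minus strand) acts in basal resistance and in drought and aluminium responses. It stood at 54.3, 52.6 and 76.2 RPKM in cfm6-1 replicates 1 to 3, against 19.69, 26.97 and 19.98 RPKM in WT. The genotypes were well apart, and cfm6-1 replicate 3 was the highest library. WRKY46 rose 2.75-fold, by 1.41 on the log2(RPKM + 1) scale (SE 0.17, limma adjusted p = 0.000255).

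WRKY53 (AT4G23810, chr4:12392370-12393982, minus strand) promotes leaf senescence and basal resistance. It stood at 26.12, 24.99 and 40.87 RPKM in cfm6-1, against 5.60, 7.48 and 6.84 RPKM in WT. Again cfm6-1 replicate 3 was the highest, and the genotypes did not overlap. WRKY53 rose 4.62-fold, by 2.02 on the log2(RPKM + 1) scale (SE 0.19, limma adjusted p = 7.66e-05), the smallest adjusted p among the 9 tested members. Its level carries a limit: its multiply mapped share reached 0.151 in the authors' deposited column, and in TAIR10.1 its gene overlaps 341 bases of 3xHMG-box2 (AT4G23800), a gene on the other strand. Whether counting used strand is not given in the sources used here, so reads in the overlap cannot be assigned. 3xHMG-box2 stood at 44.8 ± 2.98 RPKM in cfm6-1 and 30.8 ± 1.42 RPKM in WT (SD, n = 3), and its part in the WRKY53 values was not tested.

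WRKY30 (AT5G24110, chr5:8153115-8154710, minus strand) responds early to oxidative stress and pathogens. It stood at 3.52, 2.15 and 5.84 RPKM in cfm6-1, against 0.48, 0.46 and 0.51 RPKM in WT. The WT libraries were alike and low, and the cfm6-1 libraries were all higher and spread widely among themselves. The values stand for 757 reads over the cfm6-1 libraries and 94 over the WT libraries. WRKY30 rose 7.94-fold, the largest ratio of means among the 10 genes, and by 1.63 on the log2(RPKM + 1) scale, where low values count for less (SE 0.25, limma adjusted p = 0.000851).

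WRKY62 (AT5G01900, chr5:350925-352095, minus strand) and WRKY38 (AT5G22570, chr5:7495455-7496990, minus strand) are close relatives that salicylic acid induces through NPR1 and that restrain basal defence. WRKY62 stood at 1.91, 3.19 and 2.82 RPKM in cfm6-1, against 0.54, 1.34 and 0.55 RPKM in WT, with replicate 2 the highest in both genotypes. It rose 3.26-fold, by 1.02 on the log2(RPKM + 1) scale (SE 0.20, limma adjusted p = 0.00291). WRKY38 stood at 4.47, 5.94 and 6.62 RPKM in cfm6-1, against 3.21, 5.56 and 4.50 RPKM in WT, and the genotypes overlapped. Its change of 0.31 on the log2(RPKM + 1) scale (SE 0.18) did not pass (limma adjusted p = 0.167), and its 95% interval ran from -0.12 to 0.74.

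WRKY41 (AT4G11070, chr4:6759098-6760794, plus strand) is the closest relative of WRKY53 and is known from seed dormancy and bacterial responses. It stood at 4.84, 5.50 and 5.32 RPKM in cfm6-1, against 3.79, 4.06 and 4.66 RPKM in WT. The lowest cfm6-1 library was barely over the highest WT library. WRKY41 rose 1.25-fold, by 0.27 on the log2(RPKM + 1) scale (SE 0.08, limma adjusted p = 0.0197). In TAIR10.1 it overlaps 517 bases of 3xHMG-box1 (AT4G11080) on the other strand, which stood at 11.8 ± 1.15 RPKM in cfm6-1 and 10.9 ± 0.407 RPKM in WT (SD, n = 3).

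WRKY63 (AT1G66600, chr1:24848320-24849543, plus strand), also named ABO3, acts in abscisic acid and drought responses and is known to activate nuclear genes for stress-responsive mitochondrial proteins. It stood at 3.74, 4.22 and 4.55 RPKM in cfm6-1, against 3.18, 3.42 and 3.39 RPKM in WT. It rose 1.25-fold, by 0.25 on the log2(RPKM + 1) scale (SE 0.07, limma adjusted p = 0.0181). The calls of WRKY41 and WRKY63 are marginal: without WT replicate 1 their adjusted p was 0.0594 and 0.0540, without cfm6-1 replicate 2 it was 0.0652 and 0.0519, without cfm6-1 replicate 3 it was 0.0521 and 0.0551, and after quantile normalization it was 0.0614 and 0.0590. WRKY41 also missed without WT replicate 2 (adjusted p = 0.0585). On the log2(RPKM + 1) scale 313 tested loci rose further than WRKY53, 509 than WRKY30, 693 than WRKY46 and 1297 than WRKY62. For WRKY38, WRKY41 and WRKY63 these numbers were 5807, 6360 and 6604.

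The order of the levels in RPKM, which accounts for gene length, differed between the genotypes. In cfm6-1 WRKY46 was highest at 61.0 ± 13.2 RPKM, followed by WRKY53 at 30.7 ± 8.86 and WRKY70 at 30.0 ± 8.28 RPKM (SD, n = 3), and the libraries of WRKY53 and WRKY70 overlapped. In WT WRKY70 was highest at 119 ± 21.9 RPKM, followed by WRKY46 at 22.2 ± 4.12 and WRKY54 at 13.7 ± 1.88 RPKM, with no overlap between these neighbours. WRKY54 was at rank 9 of the 10 in cfm6-1 and at rank 3 in WT. Among the low members, WRKY38 and WRKY41 overlapped in both genotypes.

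The summed level of the 10 genes changed less than its make-up. The sum was 123, 130 and 184 RPKM in cfm6-1 replicates 1 to 3, against 145, 206 and 175 RPKM in WT, and the genotypes overlapped. WRKY70 held 20.5 ± 1.72% of the sum in cfm6-1 and 67.8 ± 0.988% in WT (SD, n = 3). WRKY46 held 42.0 ± 1.92% in cfm6-1 and 12.7 ± 1.13% in WT, and WRKY53 held 20.9 ± 1.49% and 3.801 ± 0.145% of the sum in cfm6-1 and WT. Within a genotype these shares varied little between libraries, although the sums did not.

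**Figure D2:**
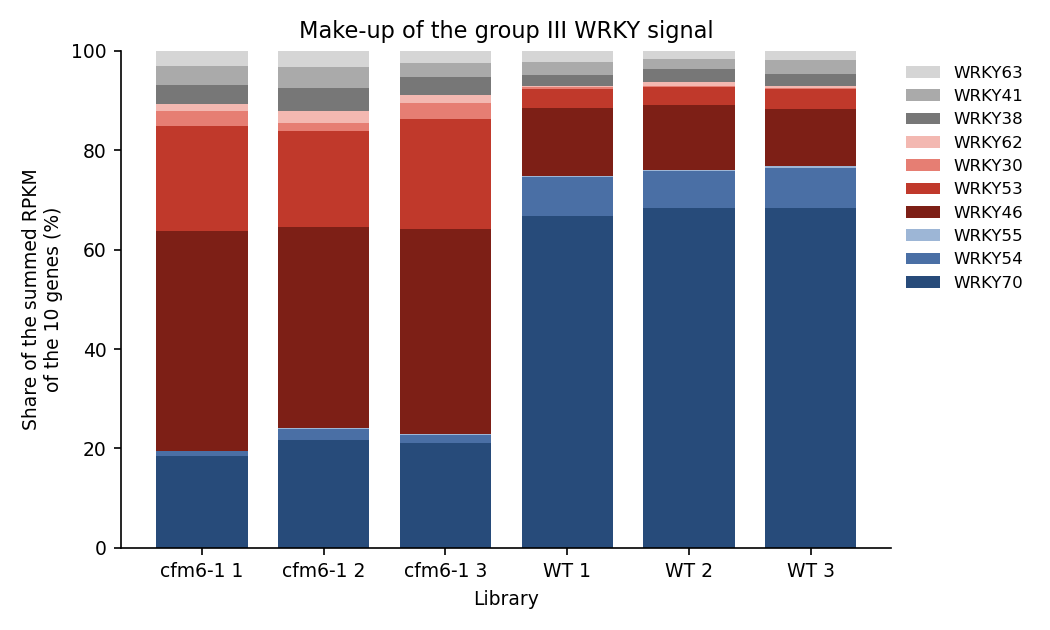
Share of each of the 10 genes in their summed RPKM, in percent, for each library, with the 3 cfm6-1 libraries left of the 3 WT libraries; lower genes are in blue, WRKY46, WRKY53, WRKY30 and WRKY62 in red, and WRKY38, WRKY41 and WRKY63 in grey. WRKY70 holds 20.5% on average in cfm6-1 and 67.8% in WT.

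High and low values of the members recurred in the same libraries of a genotype. Replicate 3 of cfm6-1 held the highest value of 8 of the 10 genes among the cfm6-1 libraries, lower and higher members among them. Replicate 1 of cfm6-1 held the lowest value of 7, while WRKY30, WRKY46 and WRKY53 were lowest in cfm6-1 replicate 2. Among the WT libraries, replicate 1 held the lowest value of 9 and replicate 2 the highest of 7. The same shares over all tested loci were not taken, so these counts describe the members only. Leaving out any 1 library kept WRKY30, WRKY46, WRKY53, WRKY62, WRKY54 and WRKY70 past the threshold, with the largest limma adjusted p at 0.0127, for WRKY62. The count of higher members ran from 4 to 6 and that of lower members stayed at 2.

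Close relatives, and the neighbours WRKY54 and WRKY55, were set against each other within each library, over 4 pairs, by the log2 ratio of their RPKM + 1. For 3 libraries against 3 a two-sided exact permutation test cannot go below 0.1. WRKY41 over WRKY53 averaged -2.31 ± 0.37 in cfm6-1 and -0.56 ± 0.16 in WT (SD, n = 3; exact permutation p = 0.1, adjusted over the pairs 0.133), and every cfm6-1 library was under every WT library. WRKY38 over WRKY62 averaged 0.88 ± 0.14 in cfm6-1 and 1.59 ± 0.21 in WT (exact permutation p = 0.1, adjusted 0.133). WRKY54 over WRKY70 averaged -3.27 ± 0.28 in cfm6-1 and -3.02 ± 0.09 in WT, and the genotypes overlapped (exact permutation p = 0.3, adjusted 0.3). In plain ratios WRKY54 stood at 0.0479, 0.0977 and 0.0748 of WRKY70 in cfm6-1 replicates 1 to 3, against 0.120, 0.108 and 0.119 in WT, which do not overlap. Whether WRKY54 fell further than WRKY70 thus rests on how much weight low values get. WRKY54 and WRKY55 stood in a ratio of 14.9 ± 3.77 in cfm6-1 and 27.5 ± 6.43 in WT, where WRKY55 is given by few reads.

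**Figure D3:**
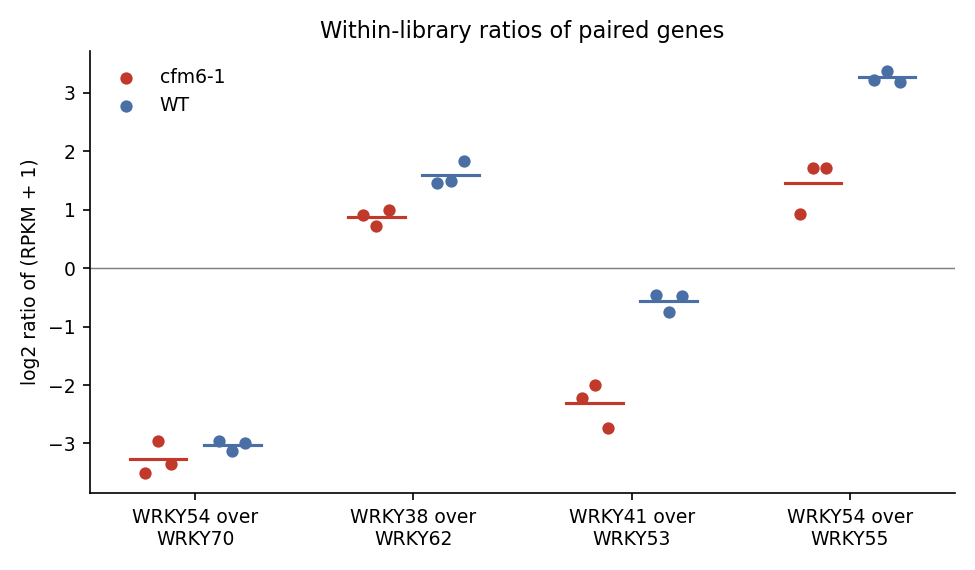
log2 ratio of RPKM + 1 between paired genes in each library, with cfm6-1 in red left of WT in blue; each point is 1 library and the bar is the mean of 3. The genotypes are apart for WRKY41 over WRKY53 and WRKY38 over WRKY62 and overlap for WRKY54 over WRKY70; the ratio over WRKY55 is set largely by the added 1, since WRKY55 is under 1 RPKM.

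In the authors' deposited table the members' calls were fewer. Only WRKY54 and WRKY70 were below 0.05 in its adjusted p-value, at 0.0216 and 0.0465. That table had 25.5% of its 33602 loci below 0.05, with no filter on low values. Its log2 fold changes of -2.64 for WRKY54, -2.03 for WRKY70, -1.81 for WRKY55, 1.41 for WRKY46, 2.16 for WRKY53 and 1.65 for WRKY62 have the signs found here. The authors' deposited table gives the direction by library codes that the labels do not explain, and it lists no fold change for the other members.

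A further 4 WRKY genes of group III lay outside the 10. WRKY52, also named RRS1, which carries an immune receptor fused to a WRKY domain, was the 1 of them that could be tested, and it fell to 88.8% of WT (log2(RPKM + 1) change -0.15, SE 0.06, limma adjusted p = 0.0472). WRKY64, WRKY66 and WRKY67 stayed under 1 RPKM in every library and were not tested. WRKY67 stood at 0.02 ± 0.02 RPKM in cfm6-1 and 0.21 ± 0.05 RPKM in WT (SD, n = 3), without overlap. WRKY66 stood at 0.277 ± 0.0874 RPKM in cfm6-1 and 0.123 ± 0.0709 RPKM in WT, and the genotypes overlapped, as they did for WRKY64. All of these values rest on few reads.

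The other WRKY subgroups give the setting. Of 50 tested genes outside group III, 23 rose and 12 fell, against 38.6% and 30.2% of all loci. By at least 1 on the log2(RPKM + 1) scale, 8 of the 50 moved in either direction, against 11.4% of tested loci that were called and moved as far. None of those 50 fell as far as WRKY54 or WRKY70: the deepest fall was that of WRKY50, a salicylic acid-responsive gene of subgroup IIc, by 1.00 on that scale. Rises were larger outside group III. WRKY48 of subgroup IIc (3.36) and WRKY40 and WRKY18 of subgroup IIa (3.18 and 2.22) rose further than WRKY53 (2.02), the largest rise of a group III member. Subgroup IIa, whose proteins restrain defence, rose in 3 of 3 genes, with WRKY40 at 188 ± 65.7 RPKM in cfm6-1 and 19.3 ± 4.09 RPKM in WT (SD, n = 3). In subgroup I WRKY33, a regulator of camalexin synthesis, rose by 1.80, and in subgroup IIc WRKY57, known from drought tolerance, rose by 1.78, on the log2(RPKM + 1) scale. Smaller changes led the remaining subgroups, with WRKY6 (1.14), WRKY11 (0.97) and WRKY22 (1.43) the rises of smallest adjusted p in IIb, IId and IIe, and WRKY61 (-0.36), WRKY21 (-0.30), WRKY65 (-0.51) and, in subgroup I, WRKY58 (-0.96) the falls. Summed over the 58 genes of these subgroups, the level was 1274 to 1676 RPKM in cfm6-1, against 708 to 828 RPKM in WT. On the log2(RPKM + 1) scale their 50 tested genes had a median change of 0.02, against 0.05 over all loci tested. WRKY33 stood at 199 ± 56.5 RPKM in cfm6-1 and 55.6 ± 8.68 RPKM in WT, and WRKY18 at 172 ± 31.6 and 36.5 ± 8.47 RPKM (SD, n = 3). With WRKY40, these high genes weigh heavily in the sum, which does not stand for the subgroups as a set.

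**Figure D4:**
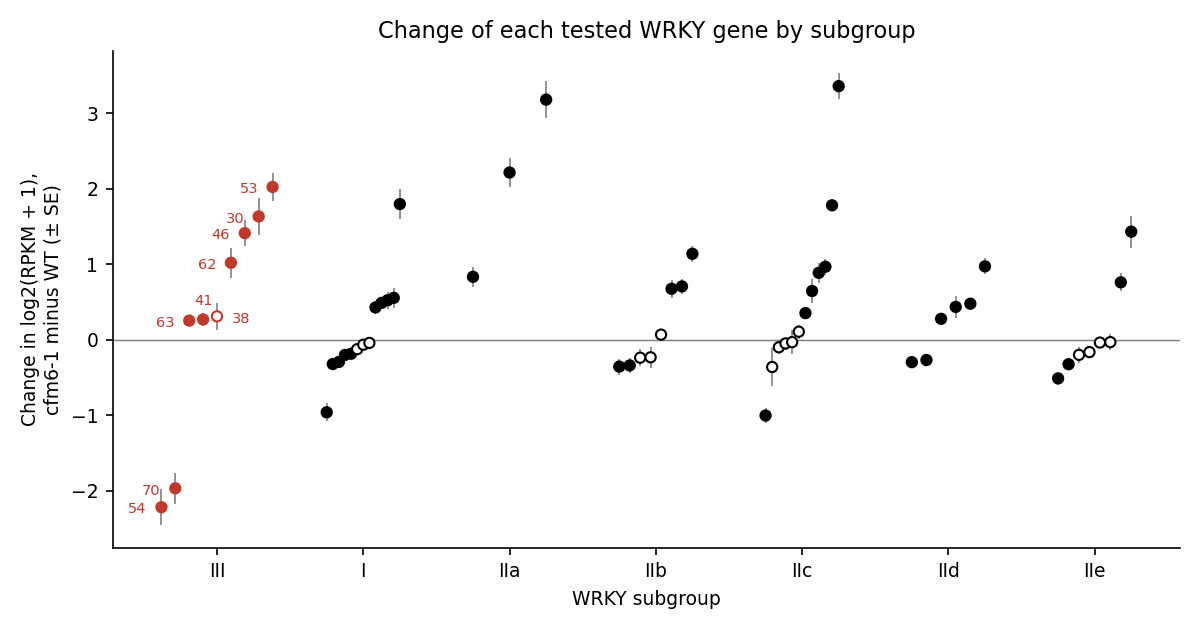
Change of the 9 tested members of group III and of the tested genes of the other WRKY subgroups on the log2(RPKM + 1) scale, cfm6-1 minus WT, by subgroup, with bars of 1 SE; filled points passed a limma adjusted p of 0.05, and the numbers name the group III genes. WRKY54 and WRKY70, at -2.22 and -1.97, lie below every gene of the other subgroups.

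The salicylic acid pathway that WRKY70 and WRKY54 belong to is given by a pair of gene lists, to be read against the 30.2% of all tested loci that fell and the 38.6% that rose. Of 10 genes for the synthesis of salicylic acid and pipecolate and its regulators, 7 fell and 1 rose (median log2(RPKM + 1) change -0.75, against 0.05 over all loci tested). ICS1, the isochorismate synthase that makes most pathogen-induced salicylic acid, stood at 6.97 ± 1.19 RPKM in cfm6-1 and 23.5 ± 3.78 RPKM in WT (SD, n = 3). ALD1, the aminotransferase that starts pipecolate synthesis, stood at 0.18 ± 0.04 RPKM in cfm6-1 and 4.37 ± 1.39 RPKM in WT, and the lipase-like immune regulators EDS1 and PAD4 fell to 53.4% and 37.7% of WT. Their partner SAG101 was the 1 gene of this list that rose, 1.90-fold. Of 17 genes for salicylic acid perception and outputs, 11 fell and 2 rose (median -0.62). DMR6, which hydroxylates salicylic acid, stood at 22.2 ± 2.95 RPKM in cfm6-1 and 130 ± 15.3 RPKM in WT, the pathogenesis-related gene PR5 and the NPR1 partner NIMIN1 fell to 0.130 and 0.0730 of the WT level, and the receptor NPR4 fell to 39.6%. The 2 that rose were the receptor NPR3, 1.61-fold, and the glutaredoxin GRX480, 3.84-fold. PR1, 1 of the 4 genes of this list that were not called, overlapped between the genotypes. It stood at 180 ± 86.0 RPKM in cfm6-1 and 268 ± 78.8 RPKM in WT (limma adjusted p = 0.153).

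Of 9 genes listed as partners or upstream kinases of WRKY proteins, not all of them tied to group III, 4 fell and 3 rose (median -0.01). Of all tested loci 30.2% fell and 38.6% rose, so the counts lie near the background. ESP, whose product antagonises WRKY53 in senescence, fell to 38.2% of WT, with 4.47 ± 0.574 RPKM in cfm6-1 and 11.7 ± 2.50 RPKM in WT (SD, n = 3). MKS1, a substrate of MPK4 that binds WRKY proteins, rose 1.84-fold, although its multiply mapped share reached 0.144. The kinase MEKK1, which acts on WRKY53, rose by 0.56 and MPK6 fell by 0.25 on the log2(RPKM + 1) scale. The histone deacetylase HDA19, which binds WRKY38 and WRKY62, stood at 50.1 ± 1.76 RPKM in cfm6-1 and 49.5 ± 2.02 RPKM in WT and did not pass (limma adjusted p = 0.766).

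Leaf senescence and jasmonate signalling are processes that these factors regulate. Of 12 tested genes of leaf senescence, 5 fell and 3 rose (median -0.15), against 30.2% and 38.6% of all tested loci. NAP, a senescence-promoting NAC factor, stood at 1.56 ± 0.591 RPKM in cfm6-1 and 24.4 ± 5.12 RPKM in WT, and the dark-inducible DIN1 fell to 21.4% of WT, while SAG21 and WRKY6 rose by 0.62 and 1.14 on the log2(RPKM + 1) scale. Of 8 outputs of jasmonate and ethylene, 4 rose and 3 fell (median 0.08), against 38.6% and 30.2% of all tested loci, and neither list's counts lie far from that background. JAZ1 and MYC2, the repressor and the master factor of jasmonate signalling, rose 5.92-fold and 4.08-fold, ERF1, an ethylene response factor, rose 3.39-fold, and the defensin PDF1.2 fell to 19.2% of WT.

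**Figure D5:**
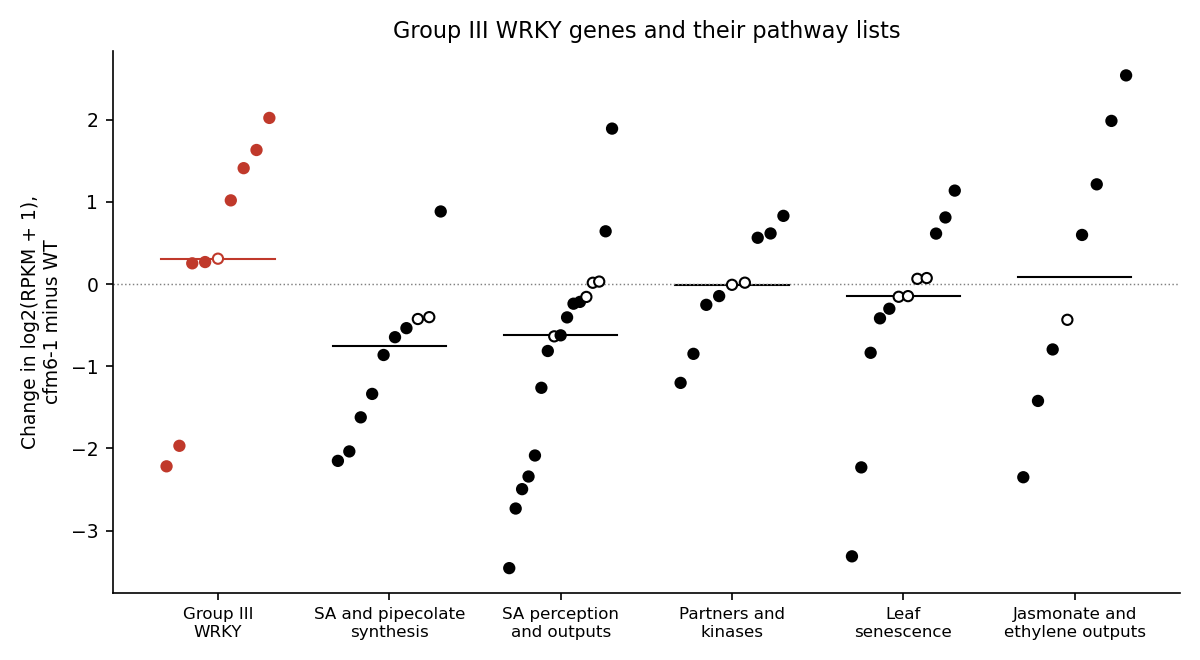
Change on the log2(RPKM + 1) scale, cfm6-1 minus WT, of each tested gene of group III and of 5 pathway lists (SA, salicylic acid); filled points passed a limma adjusted p of 0.05 and the line is the list's median. The medians of the salicylic acid lists are -0.75 and -0.62, and the other medians lie between -0.15 and 0.31.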

How the data were processed

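Whole seedlings of cfm6-1 and WT, 3 libraries each, were sequenced as single-end reads of 100 bp, as the labels' protocols state. The build named in the submitters' processing notes is TAIR10; aligner, counter and annotation are not given in the sources. RPKM values were deposited by the authors with 2 decimals, a unit read from their steps of whole reads at each gene's length, and per locus a fraction, by its name the largest multiply mapped share. Their second table gives gene model length, a deposited p-value, the same after adjustment, and a log2 fold change, the last only at p-values up to 0.05. Its 6 columns of per-library values and a table of mapping totals stand under codes the labels do not tie to samples and were not used.

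The values are not counts, so limma 3.58.1 (R 4.3.3) was fitted with a mean-variance trend to log2(RPKM + 1), genotype as factor. It was fitted over loci that reached 1 RPKM in 3 or more libraries. A run on simulated data had few changed genes and the same dispersion for all of them. That run does not stand for these data, where most loci were called. A pseudocount of 1 understates changes of low genes, so folds and percentages are ratios of mean RPKM. Depth was the value that brought RPKM times length closest to whole reads in genes shorter than 0.3 kb whose multiply mapped share was 0, where 100% of 404 to 465 values per library came within 0.1 of a whole read; reads are rebuilt from it. Names, positions and promoters come from RefSeq's TAIR10.1. Python 3.11.15 was used for motifs, ratios and figures.

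The members, lists, pairs and tests were chosen with earlier results of these data known. Named genes are the members, the other group III genes, the WRKY gene of smallest adjusted p in each direction per subgroup and up to 4 genes per list in order of adjusted p. SAG101, NPR3, GRX480, HDA19, PR1, WRKY18, WRKY48 and the root marker genes were named after their values were seen. WRKY6 counts in 2 lists. Alternatives were a pseudocount of 0.1, no filter, a filter at a mean of 10 RPKM, replicate blocks, other scalings, limma-voom on rebuilt reads, loss of loci with a multiply mapped share above 0.1, and each library left out.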

Additional observations from a re-analysis of the deposited data

How the results depend on the processing

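The directions of the 9 tested members held under every alternative run. WRKY30, WRKY46, WRKY53, WRKY54, WRKY62 and WRKY70 stayed past the threshold wherever they were tested, while WRKY41 and WRKY63 missed it in the fits named with their values. A filter at a mean of 10 RPKM removed most members and left 1 lower and 2 higher, since fewer genes were tested. Over all loci it gave 3474 lower and 4529 higher of 11022 tested. No filter gave 3 lower and 6 higher members, against 6794 lower and 8417 higher of 27471 loci. Without loci with shared reads WRKY53 was not tested. The other WRKY genes gave 35 calls among 50 tested, near the 68.8% of all tested loci, and 24 to 38 calls under the alternatives. Leaving out each library in turn gave 2 lower and 4 to 6 higher members and 31 to 35 other WRKY genes. Over all 20047 loci the same fits gave 5491 to 5734 lower and 7068 to 7464 higher. The pair ratios grew or shrank with a pseudocount of 0.1: the difference between cfm6-1 and WT was -0.65 in place of -0.25 for WRKY54 over WRKY70, with exact permutation p = 0.1 in place of 0.3, -1.30 in place of -0.71 for WRKY38 over WRKY62, and -1.34 in place of -1.81 for WRKY54 over WRKY55. Leaving out 1 library moved them between -0.41 and -0.13, between -0.78 and -0.59, and between -1.95 and -1.55, and WRKY41 over WRKY53 between -1.91 and -1.55. With replicate block the counts were 2 lower and 7 higher, WRKY38 being added (limma adjusted p = 0.0310), where 5832 of all loci were lower and 7423 higher. Same-numbered libraries did not deviate together (correlations 0.03, -0.14 and -0.0023 over tested loci). These correlations cannot tell whether the numbers pair the samples, since pairs with no large shared effect would give the same. The balance of all loci turned with quantile normalization, to 6562 higher and 7248 lower in place of 7736 and 6063. At this depth WRKY55 rests on few reads, and counting error limits it.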

Other observations

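Over the 6 libraries, the loci whose changes from the WT mean on the log2(RPKM + 1) scale lay closest to those of WRKY70, the lower member of smallest adjusted p, were AT5G52740, CYP71B24 and AT2G17880, at root mean square distances of 0.13, 0.14 and 0.15. CYP71B24, a cytochrome P450, stood at 3.72 ± 0.851 RPKM in cfm6-1 and 19.7 ± 3.98 RPKM in WT (SD, n = 3). The loci closest to WRKY53, the higher member of smallest adjusted p, were MYC2, BME3 and RDUF2, at 0.08 each, and MYC2 stood at 139 ± 27.3 RPKM in cfm6-1 and 34.1 ± 3.97 RPKM in WT. These are descriptions over 6 libraries of 2 genotypes.

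In windows of 1000 bases before the gene start, 8 of the 10 group III genes held a W box, against 67.3% of windows before protein-coding genes, and WRKY38 and WRKY70 held none. The mitochondrial dysfunction motif, searched on both strands, was in none of the 10 and in 4.39% of all such windows. No match says only that these letters are not in this window.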
